A study of Mus musculus with 30 samples.

Results

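10 genes that mark adipocyte progenitors and fibroblasts were followed in gonadal white adipose tissue (gWAT) of mice: the early progenitor markers *Dpp4*, *Pi16* and *Cd55*, the committed preadipocyte marker *Icam1*, the CD142 gene *F3*, the general progenitor markers *Pdgfra*, *Cd34*, *Ly6a* and *Thy1*, and the fibroblast protease gene *Fap*. They were taken by symbol from the 55401 genes of the count table, and all 10 were found. Each had at least 318 counts in every library and passed the filter on low counts. RNA was sequenced from 30 mice, 1 library per mouse, of which 15 were classed as DP (diabetes-prone) and 15 as DR (diabetes-resistant). All were females of the obese inbred NZO/HIBomDife strain on a high-fat diet, and the classes share strain and genotype. The study put each mouse in its class by a risk score after 5 weeks of the diet and took gWAT at 10 weeks of age, so a class is a prediction made before hyperglycaemia and not an observed outcome. Total counts per library ran from 28146906 to 29974243.

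White fat holds fat cells together with a stroma of fibroblast-like cells that carry PDGFRA on their surface, some of which can become new fat cells. In mouse fat, cells with DPP4, PI16 and CD55 are described as early progenitors of the connective tissue between fat lobules, cells with ICAM1 as preadipocytes committed to the fat cell fate, and cells with CD142 as a further group that can restrain adipogenesis. None of these genes is private to progenitors: ICAM1 is also made by macrophages and endothelial cells, CD34 and LY6A by endothelial cells, THY1 by mouse T cells and DPP4 by the mesothelium that covers gonadal fat.

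The committed marker *Icam1* was higher in DP and the early markers *Dpp4* and *Cd55* were lower, while *Pi16* was at about the same mean level in both. *Pdgfra*, *Thy1*, *Ly6a* and *Fap* were also higher in DP. Of the 10 genes, 5 were called higher and 2 lower, and *Pi16*, *Cd34* and *F3* missed an adjusted p of 0.05 (edgeR's quasi-likelihood test, Benjamini-Hochberg adjustment over the 17482 genes tested). Over all genes tested, 28.2% rose and 27.3% fell, 55.5% in either direction, so 7 of 10 is not far from the background of this comparison. DESeq2 and limma-voom gave the same counts of 5 and 2, where 27.3% and 28.6% of all genes (DESeq2) and 29.3% and 27.9% (limma-voom) were called higher and lower. The median log2 fold change was 0.22 over the 10 genes and -0.0056 over all genes tested, and the median size of the change was 0.28 and 0.18 on the log2 scale. In no member did the libraries of the classes separate without overlap, which 2.89% of tested genes did (1.96% with DP higher and 0.927% with DP lower). Levels are given in CPM (counts after scaling each library to the same size), and a fold change is DP over DR. In bulk tissue, fewer cells of a type and less RNA per cell cannot be told apart.

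**Figure D1:**
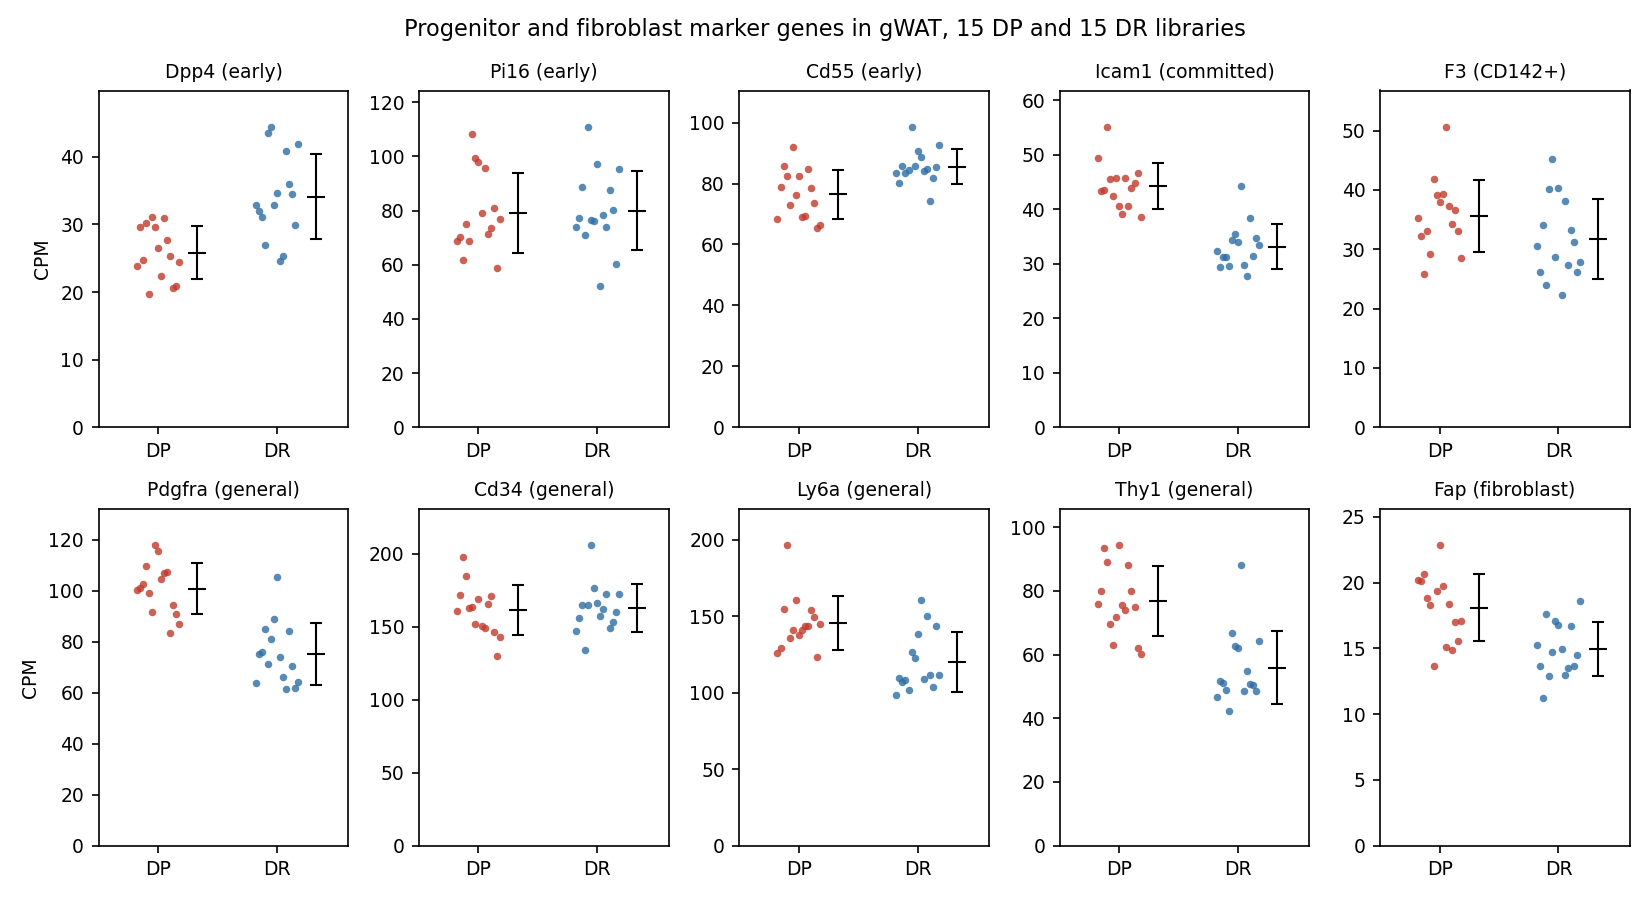
CPM of each of the 10 genes (vertical axes, starting at 0) in 15 DP libraries (red, left) and 15 DR libraries (blue, right), with the mean and SD as a black bar. *Icam1*, *Pdgfra*, *Thy1*, *Ly6a* and *Fap* sit higher in DP, *Dpp4* and *Cd55* lower, and in every panel the ranges overlap.

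Of the early markers, *Dpp4* differed most. It encodes a membrane dipeptidase that cleaves incretins and chemokines (ENSMUSG00000035000, chromosome 2, 62330073 to 62412231 of GRCm38). The lowest, median and highest DP libraries had 19.6, 25.3 and 31.04 CPM, against 24.6, 32.9 and 44.5 CPM in DR. All 15 DP libraries lay below the DR median, 6 of them below every DR library, and 11 DR libraries lay above every DP library. The log2 fold change was -0.40 ± 0.0857 (SE, n = 15 each, adjusted p = 0.000195 by edgeR), a level 1.32-fold lower in DP. With macrophage or adipocyte markers in the fit it was -0.17 and -0.22 and did not pass. *Cd55*, which encodes the complement decay-accelerating factor (ENSMUSG00000026399, chromosome 1, 130439027 to 130462744), had 65.6, 76.2 and 91.8 CPM in the lowest, median and highest DP libraries and 74.3, 84.7 and 98.7 CPM in DR. 12 of 15 DP libraries were below the DR median and 7 below every DR library, and 2 DR libraries were above every DP library. This was a smaller difference of -0.16 ± 0.0443 on the log2 scale (adjusted p = 0.00232 by edgeR). It no longer passed in 5 of 18 alternatives, where it was -0.071 with endothelial, -0.098 with mesothelial, -0.061 with macrophage and -0.097 with adipocyte markers in the fit and -0.12 in the 15 libraries of lower library number. Of the 50-base stretches in *Cd55* transcripts, 8.0% also occur in *Cd55b*, so reads of these stretches may be split between the genes.

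*Pi16* encodes a secreted peptidase inhibitor that marks fibroblasts shared by many organs (ENSMUSG00000024011, chromosome 17, 29317680 to 29330593). It had 58.9, 75.2 and 108 CPM in the lowest, median and highest DP libraries and 52.0, 77.1 and 111 CPM in DR. The ranges cover each other almost wholly. The log2 fold change was -0.015 ± 0.0918 (adjusted p = 0.902 by edgeR), with an interval from -0.20 to 0.17, so a change of *Pi16* as large as that of *Dpp4* lies outside the interval, while one the size of that of *Cd55* lies within it.

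The committed marker *Icam1*, which encodes an adhesion molecule for leukocyte integrins (ENSMUSG00000037405, chromosome 9, 21015985 to 21028817), had the smallest p of the 10 genes. Its lowest, median and highest DP values were 38.5, 43.9 and 55.1 CPM, against 27.7, 32.3 and 44.3 CPM in DR. 14 DR libraries lay below every DP library, the exception being DR library 9, and 7 DP libraries lay above every DR library. The log2 fold change was 0.42 ± 0.0548 (adjusted p = 1.39e-07 by edgeR), 1.34-fold higher in DP. Without DR library 9, a setting chosen after its values were seen, it was 0.44 ± 0.0471. With macrophage or adipocyte markers in the fit it was 0.11 and 0.067 and did not pass. Exons of *Icam1* share 11.7% of their bases with the antisense gene *Gm47079*, whose log2 fold change was 0.36. That gene had a mean of 50.2 counts per library beside 1117 for *Icam1*.

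Within a library, *Icam1* was higher relative to each of the early members in DP. These differences all rest on the single committed gene *Icam1*, and the one with *Pi16* on a partner that did not pass. The wider lists of committed and early genes did not move apart in this way: their summed levels had medians of 8536 CPM in DP and 8484 CPM in DR (committed) and 1041 CPM in DP and 1097 CPM in DR (early), with median log2 fold changes of -0.027 and -0.065. *Apoe*, *Col4a1* and *Col4a2* weigh most in the committed sum and *Fbn1* in the early sum, and none of them passed. The sums thus say little about the less abundant genes of the lists, whereas the median log2 fold changes weigh each gene alike. The difference of log2 CPM between *Icam1* and *Dpp4* was 0.45, 0.80 and 1.21 in the lowest, median and highest DP libraries and -0.56, -0.028 and 0.85 in DR. As a ratio of CPM, the median was 1.74 in DP and 0.981 in DR. 14 DR libraries were below every DP library, DR library 9 again being the exception, and 5 DP libraries were above every DR library. The same difference with *Cd55* in place of *Dpp4* had medians of -0.79 in DP and -1.41 in DR, with 13 DR libraries below every DP library and 11 DP libraries above every DR library. With *Pi16* the medians were -0.81 in DP and -1.36 in DR, 8 DR libraries were below every DP library and 0 DP libraries above every DR library. These ratios compare libraries and not genes, since CPM does not account for gene length, and they are given without a test because their parts were tested above.

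**Figure D2:**
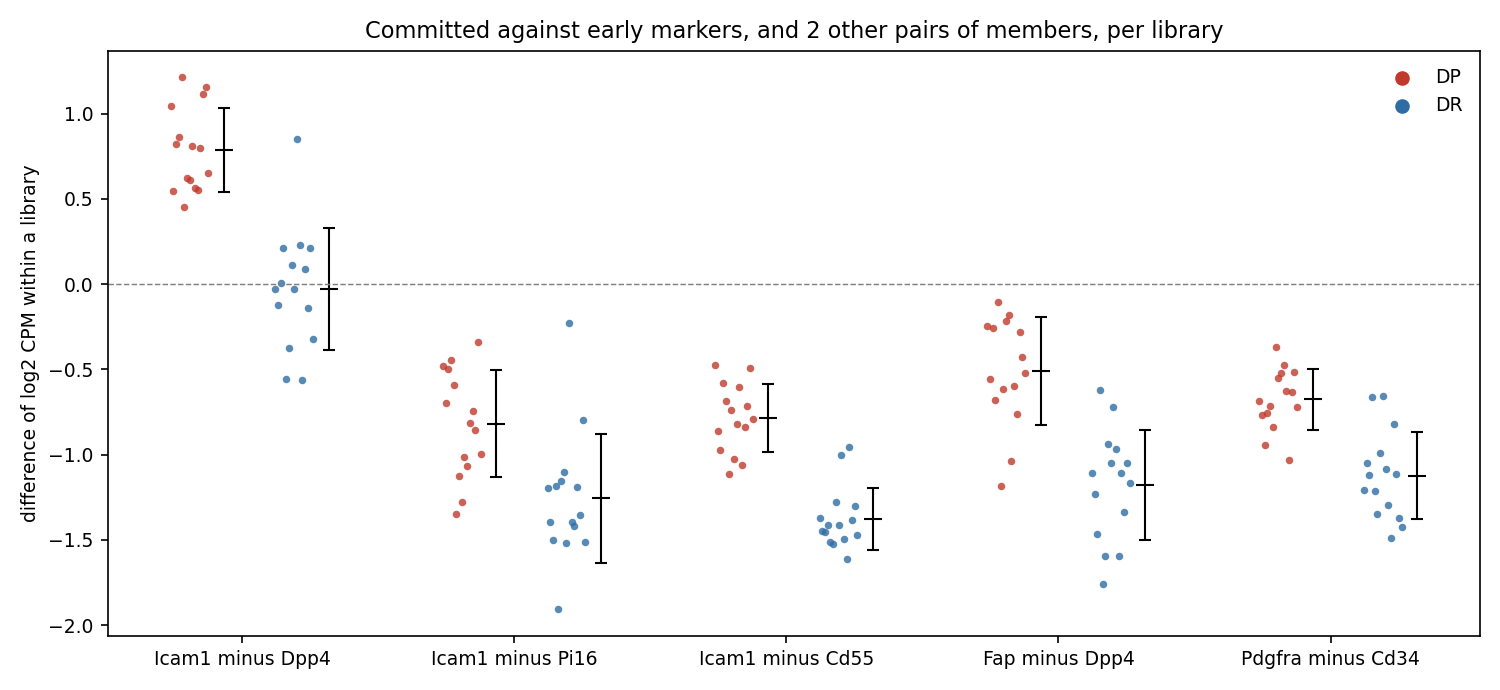
Difference of log2 CPM between members within a library (vertical axis) for 15 DP (red, left of each pair) and 15 DR libraries (blue, right), with mean and SD as black bars; the dashed line marks equal CPM. *Icam1* minus *Dpp4* is above 0 in every DP library, with a median of 0.80 in DP and -0.028 in DR.

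The promoters of these oppositely moving genes were read to show what motifs lie next to their start sites. RefSeq (GRCm38.p6) gave a promoter window for 7 of the 10 genes (*Pdgfra*, *Dpp4*, *Pi16*, *Icam1*, *Cd55*, *F3* and *Cd34*). The 250 bases before the start are printed from 5′ to 3′ for the committed marker *Icam1* (chr9:21015690-21015939, plus strand) and the early markers *Dpp4* (chr2:62412232-62412481, minus strand) and *Cd55* (chr1:130462745-130462994, minus strand). Capitals mark matches, on either strand, to the TATA box TATAAA, the Sp1 motif GGGCGG, an NF-kB-like motif GGNNNTTCC, the AP-1 motif TGANTCA, a STAT motif TTCNNNGAA, the TEAD motif GGAATG or a C/EBP motif TTGCNNAA, and no matches overlapped.
Icam1: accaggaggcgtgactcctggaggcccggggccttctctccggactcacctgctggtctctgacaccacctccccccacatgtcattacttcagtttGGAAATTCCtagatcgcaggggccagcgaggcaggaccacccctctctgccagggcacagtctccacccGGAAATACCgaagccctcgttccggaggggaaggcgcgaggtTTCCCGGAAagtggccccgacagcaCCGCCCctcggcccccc
Dpp4: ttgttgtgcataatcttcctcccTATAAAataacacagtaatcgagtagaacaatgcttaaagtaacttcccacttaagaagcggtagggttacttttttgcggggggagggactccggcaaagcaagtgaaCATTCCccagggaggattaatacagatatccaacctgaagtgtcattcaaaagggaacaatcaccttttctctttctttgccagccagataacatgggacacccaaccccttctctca
Cd55: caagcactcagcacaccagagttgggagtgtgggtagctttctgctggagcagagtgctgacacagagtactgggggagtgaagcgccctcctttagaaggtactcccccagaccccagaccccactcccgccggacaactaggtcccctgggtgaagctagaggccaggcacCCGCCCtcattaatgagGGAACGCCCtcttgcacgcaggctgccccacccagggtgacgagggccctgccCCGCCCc
In *Icam1*, the NF-kB-like motif matched as GGAAATTCC at -153 to -145 and as GGAAATACC at -84 to -76, the STAT motif as TTCCCGGAA at -42 to -34 and the Sp1 motif at -17 to -12, counted from -1 at the base before the start. *Dpp4* held TATAAA at -227 to -222 and the TEAD motif at -118 to -113. *Cd55* held the Sp1 motif at -77 to -72 and -7 to -2 and an NF-kB-like match at -60 to -52, so this last motif was in a gene that rose and in a gene that fell. *F3*, whose sequence is not printed, held the AP-1 motif at -146 to -140 and at -135 to -129, the NF-kB-like motif at -112 to -104 and 3 Sp1 motifs, and *Pi16* and *Cd34* held no match. The RefSeq window of *Pi16* (chr17:29318632-29318881) lies inside the gene span given above, so the bases before that span were not searched. Of the 32851 promoters in the table, 15.7% held the NF-kB-like motif, 7.02% the STAT motif, 12.4% TATAAA, 12.6% the TEAD motif, 32.7% the Sp1 motif, 6.75% the AP-1 motif and 9.56% the C/EBP motif, which *Pdgfra* held at -118 to -111. A match is a string of letters and was not tested as a binding site.

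Among the general markers, *Pdgfra* and *Thy1* differed most. *Pdgfra*, the platelet-derived growth factor receptor that defines fat progenitors (ENSMUSG00000029231, chromosome 5, 75152292 to 75198215), had 83.6, 101 and 118 CPM in the lowest, median and highest DP libraries and 61.4, 74.2 and 105 CPM in DR. All 15 DP libraries were above the DR median and 11 DR libraries below every DP library, while 5 DP libraries were above DR library 8, the highest of its class. The log2 fold change was 0.42 ± 0.0659 (adjusted p = 2.44e-06 by edgeR), and -0.0053 and -0.085, not passing, with macrophage or adipocyte markers in the fit. *Thy1* (CD90, ENSMUSG00000032011, chromosome 9, 44043384 to 44048579) had 60.1, 75.6 and 94.4 CPM in DP and 42.3, 51.1 and 88.1 CPM in DR. DR library 9 reached the upper part of the DP range, 10 DR libraries were below every DP library and 4 DP libraries above every DR library. Its log2 fold change of 0.46 ± 0.0844 was the largest of the 10 (adjusted p = 2.65e-05 by edgeR), and was 0.51 ± 0.0718 without DR library 9. It no longer passed in the 15 libraries of higher library number (0.32) or with macrophage (0.28) or adipocyte markers (0.016) in the fit.

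*Ly6a* encodes the stem cell antigen Sca-1 (ENSMUSG00000075602, chromosome 15, 74994877 to 74998031). Its lowest, median and highest libraries had 123.5, 143 and 196.5 CPM in DP and 98.3, 111 and 160.5 CPM in DR. DP library 4 and DR library 9 were the highest of their classes, 10 DR libraries were below every DP library, and 2 DP libraries were above every DR library. The log2 fold change was 0.28 ± 0.0693 (adjusted p = 0.00114 by edgeR), and it no longer passed in the 15 libraries of higher library number (0.14) or with macrophage (0.24) or adipocyte markers (0.069) in the fit. Of the 50-base stretches in its transcripts, 15.0% also occur in *Ly6c1*, which fell by 0.16 on the log2 scale, so reads of these copies may be split between them. *Cd34*, which encodes a sialomucin of progenitors and endothelium (ENSMUSG00000016494, chromosome 1, 194938819 to 194961279), had 130.0, 163 and 198 CPM in DP and 134, 162 and 206 CPM in DR. The ranges nearly coincide. Its log2 fold change was -0.014 ± 0.0520 (adjusted p = 0.84 by edgeR), with an interval from -0.12 to 0.088 that leaves out changes the size of those of *Pdgfra*, *Thy1*, *Ly6a* and *Icam1*.

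*Fap*, the gene of a serine protease of activated fibroblasts and a relative of *Dpp4* (ENSMUSG00000000392, chromosome 2, 62500943 to 62574075), was higher in DP where *Dpp4* was lower. It had 13.7, 18.4 and 22.9 CPM in the lowest, median and highest DP libraries and 11.2, 14.7 and 18.6 CPM in DR. 14 of 15 DP libraries were above the DR median and 7 above every DR library, and 5 DR libraries were below every DP library. Its log2 fold change was 0.28 ± 0.0716 (adjusted p = 0.00148 by edgeR). It no longer passed in 4 of 18 alternatives, at 0.13 in the 15 libraries of higher library number, 0.24 with endothelial and 0.077 with macrophage markers in the fit, and with adipocyte markers its sign turned (-0.13). The genes lie 88711 bases apart on chromosome 2, with *Gcg* as the only protein-coding gene between them. The difference of log2 CPM between *Fap* and *Dpp4* had medians of -0.52 in DP and -1.11 in DR, with 11 DP libraries above every DR library and 6 DR libraries below every DP library.

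*F3* encodes tissue factor, the CD142 antigen and trigger of coagulation (ENSMUSG00000028128, chromosome 3, 121723537 to 121735048). It had 25.7, 35.3 and 50.7 CPM in the lowest, median and highest DP libraries and 22.2, 30.5 and 45.2 CPM in DR. 12 of 15 DP libraries were above the DR median, but most of the ranges overlapped. The log2 fold change of 0.17 ± 0.0949 did not pass (adjusted p = 0.134 by edgeR, interval -0.018 to 0.35). *F3* was also the most variable of the 10 genes within DR, where its SD was 21.2% of the mean, against 6.57% for *Cd55*.

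To compare the levels of different genes, CPM was divided by exon length in kilobases (FPKM). *Ly6a* was by far the most abundant, at 121 ± 14.6 FPKM in DP and 99.7 ± 16.1 FPKM in DR (SD, n = 15 each), and did not overlap the next gene in either class. *Thy1* (25.7 ± 3.64 FPKM) and *Cd34* (22.1 ± 2.35 FPKM) followed in DP, whereas in DR *Cd34* (22.3 ± 2.23 FPKM) stood before *Thy1* (18.7 ± 3.82 FPKM), with overlapping ranges in both classes. *Cd55*, *Pi16* and *F3* came next with means between 12.4 and 17.6 FPKM, each overlapping its neighbour. *Icam1* and *Pdgfra* overlapped in level in both classes, at 10.2 ± 0.965 and 10.1 ± 1.0 FPKM in DP and 7.60 ± 0.950 and 7.51 ± 1.21 FPKM in DR. *Dpp4* (4.09 ± 0.619 FPKM in DP and 5.40 ± 0.998 FPKM in DR) and *Fap* (3.20 ± 0.448 FPKM in DP and 2.64 ± 0.364 FPKM in DR) were the least abundant, with overlapping ranges in DP and none in DR.

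Several early and general markers varied together from mouse to mouse, and *Icam1* was in no pair that passed. With the class means removed, 6 of the 45 pairs of members had a permutation p that passed adjustment over the 45, all of them positive (30 libraries, log2 CPM, labels permuted within classes). The strongest relation joined *Cd55* and *Cd34* (Pearson's r = 0.724, adjusted permutation p = 0.0009, Spearman's rho = 0.793, adjusted permutation p = 0.00045), and r was 0.749 within DP, 0.714 within DR and 0.740 without the 2 libraries farthest from the median. *Pi16* and *F3* had r = 0.681 (adjusted permutation p = 0.00112, rho = 0.705, adjusted permutation p = 0.000675), 0.723 within DP and 0.654 within DR, and *Dpp4* and *Pi16* had r = 0.591 (adjusted permutation p = 0.0109, rho = 0.482, adjusted permutation p = 0.0379), 0.556 within DP and 0.622 within DR. Without the 2 farthest libraries these were 0.593 and 0.569.

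*Thy1* joined the other 3 pairs, with *Cd34* (r = 0.565, adjusted permutation p = 0.0166, rho = 0.664, adjusted permutation p = 0.0015), *Ly6a* (r = 0.560, adjusted permutation p = 0.0186, rho = 0.531, adjusted permutation p = 0.0244) and *Cd55* (r = 0.514, adjusted permutation p = 0.0191, rho = 0.603, adjusted permutation p = 0.0054). Without the 2 farthest libraries they were 0.490, 0.366 and 0.664. Within DP they were 0.758, 0.369 and 0.523, and within DR 0.418, 0.668 and 0.576. Other pairs narrowly missed on r (adjusted permutation p = 0.0508). Of these, *Pdgfra* with *Fap* (r = 0.471), *Thy1* with *Fap* (0.467) and *Dpp4* with *Cd34* (0.466) passed on rho (adjusted permutation p = 0.0244, 0.0375 and 0.0375). *Icam1* with *Thy1* (r = 0.479) and *Dpp4* with *F3* (0.472) did not (adjusted permutation p of rho = 0.346 and 0.109). *Icam1* had r = -0.127 with *Dpp4* (adjusted permutation p = 0.714, rho = -0.0336, adjusted permutation p = 0.906) and -0.335 with *Pi16* (adjusted permutation p = 0.205, rho = -0.275, adjusted permutation p = 0.366), which was -0.0596 without the 2 farthest libraries. An inverse relation of *Icam1* and *Dpp4* among mice of a class was thus not detectable in these 30 libraries.

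Among 12702 other genes with a mean count of at least 50, the patterns most like each member over the 30 libraries, class means removed, were as follows. *Dpp4* was followed by *Pkhd1l1* (r = 0.865) and by *Gpm6a* (r = 0.853), which is on the mesothelial marker list. *Thy1* was followed by the collagen cross-linking enzyme gene *Loxl2* (r = 0.826) and the collagen gene *Col6a3* (r = 0.816). *Pdgfra* was followed by the scavenger receptor gene *Stab1* (r = 0.858) and *Uggt1* (r = 0.846), *Icam1* by *Tlr9* (r = 0.788), a receptor of immune cells, and *Ugcg* (r = 0.777), and *Fap* by the replication licensing gene *Cdc6* (r = 0.722) and the proteoglycan gene *Lum* (r = 0.688). For *Pi16* these genes were *Mxi1* (r = 0.835) and *Pamr1* (r = 0.828), for *F3* *Peg3* (r = 0.786) and *Thbs2* (r = 0.781), and for *Cd34* *Gas6* (r = 0.807) and *Tagap* (r = 0.791). *Cd55* was most like *Sema5a* (r = 0.742) and *Tagap1* (r = 0.729), and *Ly6a* most like the interferon-induced *Ifitm3* (r = 0.717) and the antigen-loading gene *Tapbp* (r = 0.712). These are descriptions of likeness, chosen as the highest of many.

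Markers of other cell types moved with the classes. All 10 macrophage markers rose, with a summed level of 2662 to 3484 CPM in DP and 1084 to 2341 CPM in DR, so that every DP library was above every DR library. All 10 adipocyte markers fell (18730 to 24620 CPM in DP and 25260 to 32120 CPM in DR, again without overlap), as did all 10 endothelial markers (702 to 1133 CPM in DP and 919 to 1332 CPM in DR), 9 of 10 mesothelial markers (59.1 to 164 CPM in DP and 93.8 to 274 CPM in DR) and 7 of 8 smooth muscle and pericyte markers (678 to 1069 CPM in DP and 877 to 1518 CPM in DR). The remaining smooth muscle and pericyte marker, *Cspg4*, was called higher (log2 fold change 0.24 ± 0.0635, adjusted p = 0.00202 by edgeR). *Rgs5* made up 48.1% of the summed level of that list. Of the 7 T cell markers *Cd247* fell, and the 5 B cell markers did not pass in edgeR (1 of them, *Ms4a1*, had an unadjusted p under 0.05). No marker of these lists was at 0 in all libraries.

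The relations of members with marker lists, given here and in the next paragraph, were chosen after the values were seen. *Dpp4* followed the mesothelial markers closely. Over the 30 libraries, with class means removed, its r with their mean log2 CPM was 0.830 (rho = 0.822, adjusted permutation p = 0.0007 for both over 70 relations of 10 members with 7 lists), 0.894 within DP, 0.783 within DR and 0.789 without the 2 farthest libraries. DR library 6, the highest in mesothelial markers, was also the highest of its class in *Dpp4*, *Cd55*, *F3* and *Cd34*. With the mesothelial markers as a covariate, the log2 fold change of *Dpp4* was -0.16 ± 0.0578 (adjusted p = 0.0277 by edgeR, from 1.05e-05 to 0.989 over the 18 alternatives), against -0.40 without it. *Cd34* was the only other member with an r to the mesothelial markers that passed (r = 0.598, rho = 0.603, adjusted permutation p = 0.0112 and 0.0169), 0.490 within DP, 0.712 within DR and 0.583 without the 2 farthest libraries. *F3* (r = 0.463), *Cd55* (r = 0.452) and *Pi16* (r = 0.444) leaned the same way without passing (adjusted permutation p = 0.0784, 0.0784 and 0.0791). *Cd34* also followed the endothelial markers (r = 0.567, rho = 0.587, adjusted permutation p = 0.0189 and 0.0169), 0.729 within DP, 0.404 within DR and 0.596 without the 2 farthest.

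*Pdgfra* and *Icam1* varied with the macrophage and adipocyte markers among mice of a class. *Pdgfra* had r = 0.638 with the macrophage markers (rho = 0.600, adjusted permutation p = 0.0112 and 0.0169), 0.482 within DP, 0.696 within DR and 0.487 without the 2 farthest libraries, and r = -0.661 with the adipocyte markers (rho = -0.598, adjusted permutation p = 0.00175 and 0.0169), -0.654 within DP, -0.691 within DR and -0.612 without the 2 farthest. *Icam1* had r = 0.549 with the macrophage markers (adjusted permutation p = 0.0337), but its rho of 0.422 did not pass (adjusted permutation p = 0.153). Within DP r was 0.368, within DR 0.636, and without the 2 farthest libraries 0.501. With the adipocyte markers *Icam1* had r = -0.557 (rho = -0.552, adjusted permutation p = 0.0195 and 0.025), -0.424 within DP, -0.671 within DR and -0.612 without the 2 farthest. Its r of 0.504 with the T cell markers (adjusted permutation p = 0.0362) came with a rho of 0.202 (adjusted permutation p = 0.548) and was 0.335 without the 2 farthest libraries, 0.657 within DP and 0.383 within DR.

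**Figure D3:**
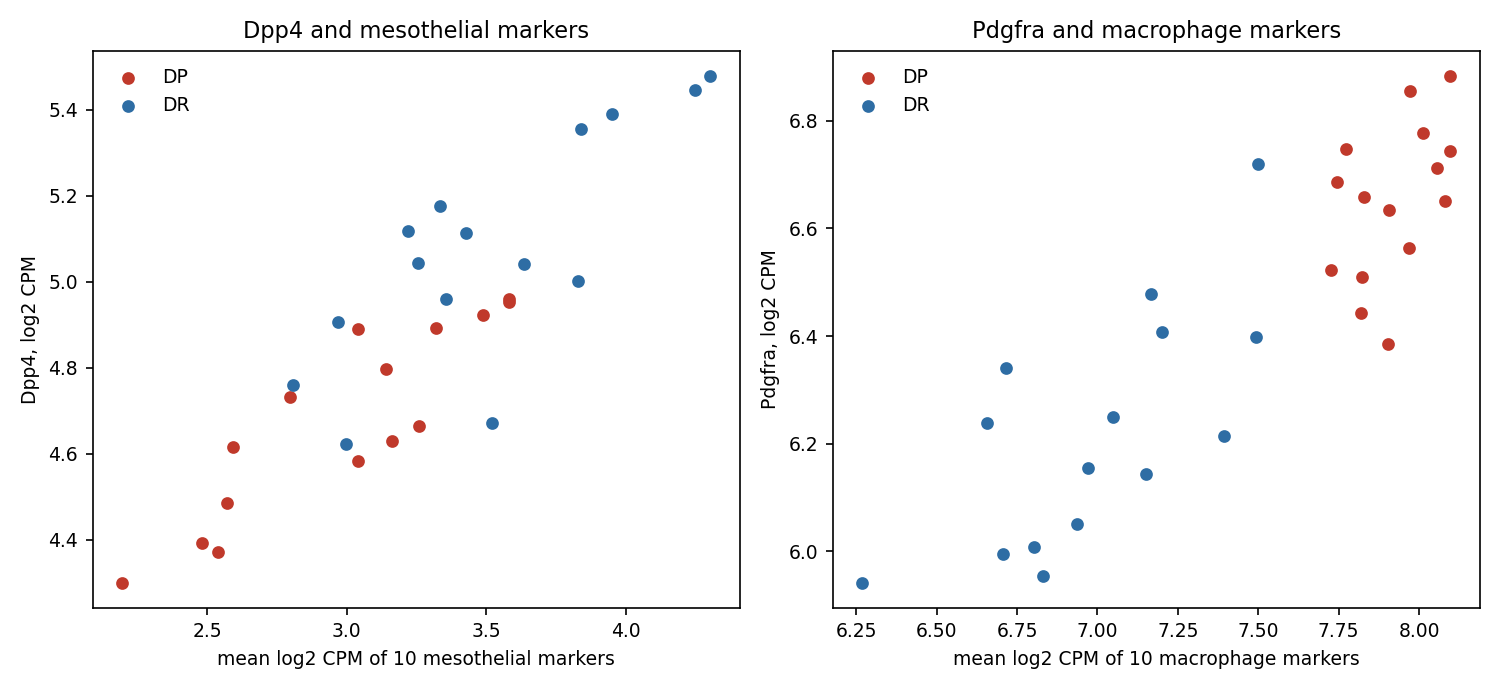
Left, *Dpp4* (log2 CPM, vertical axis) against the mean log2 CPM of 10 mesothelial markers (horizontal axis); right, *Pdgfra* against 10 macrophage markers, each point 1 of 15 DP (red) or 15 DR (blue) libraries. *Dpp4* climbs with the mesothelial markers in both classes (r = 0.830 with class means removed), and the macrophage markers of the classes do not overlap.

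When the macrophage or the adipocyte markers entered the fit as a covariate, 0 of the 10 genes passed in edgeR (0 at an unadjusted p under 0.05), and 0 of the 17482 genes tested (2059 and 1012 at an unadjusted p under 0.05), in fits run with no other tool. Both marker sets separate the classes without overlap, so class and marker level cannot be told apart in these fits. With the endothelial markers 4 members rose and 1 fell, where 16.1% and 13.2% of all genes did, and with the mesothelial markers 6 rose, *F3* among them, and 1 fell, where 24.4% and 22% of all genes did. *Icam1* was 0.40 ± 0.0639 on the log2 scale with the mesothelial and 0.40 ± 0.0799 with the endothelial markers in the fit, close to its 0.42 without them. In the 15 libraries of lower library number 5 members rose and 1 fell, beside 21.1% and 22.4% of all genes, and in the 15 of higher number 2 rose and 2 fell, beside 17.4% and 18%.

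**Figure D4:**
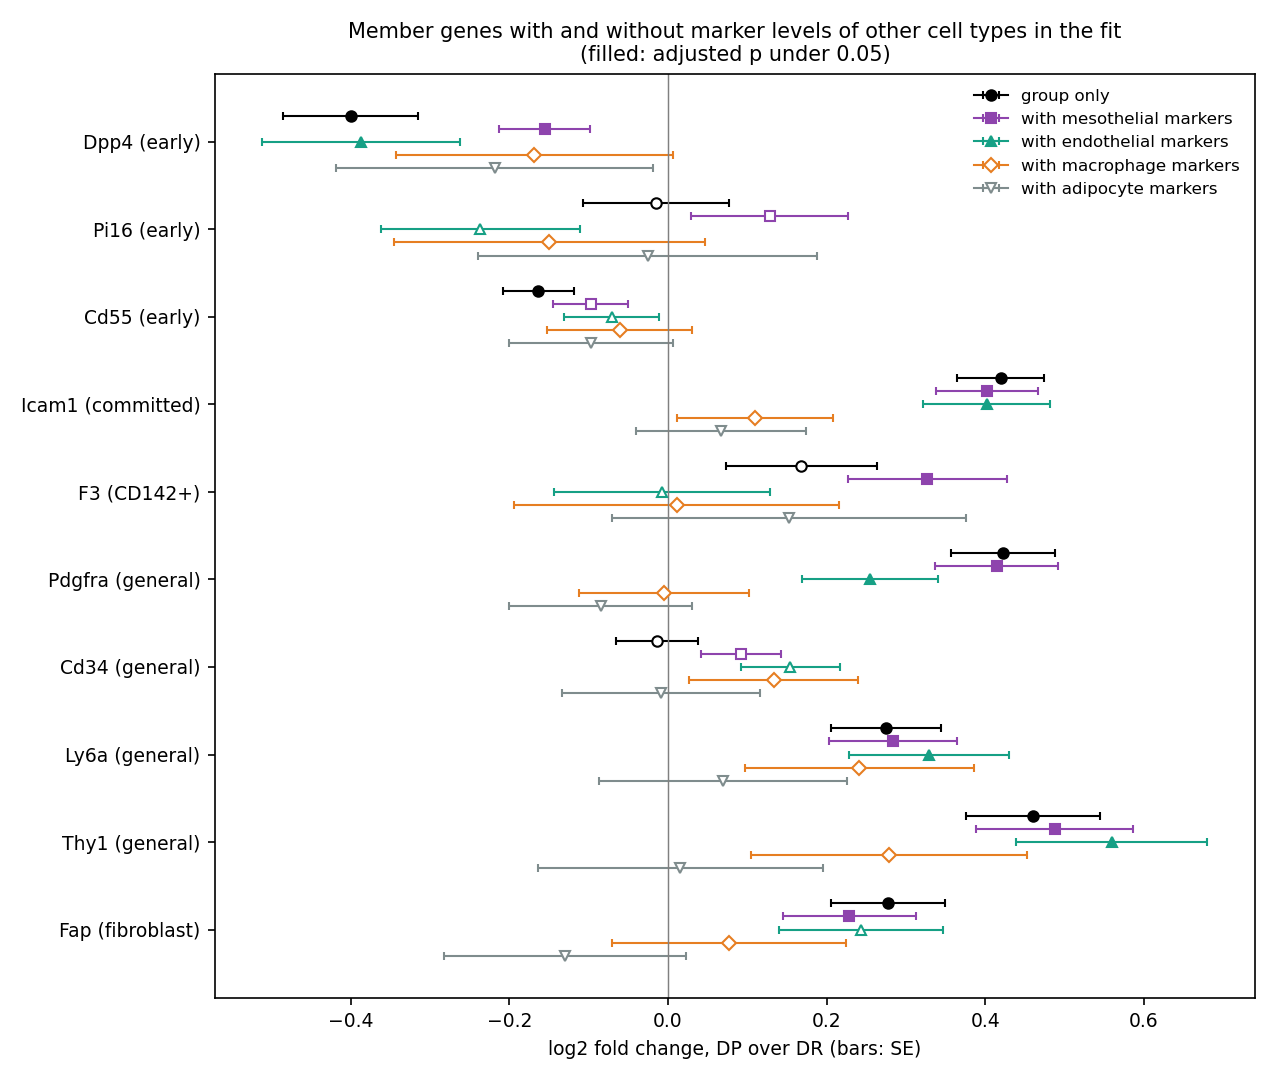
Log2 fold change, DP over DR (horizontal axis, bars show the SE), of each gene in the fit with class only (black) and with the mean level of mesothelial, endothelial, macrophage or adipocyte markers as a covariate; filled symbols passed an adjusted p of 0.05. *Dpp4* shrinks to -0.16 with the mesothelial markers, and no gene is filled with the macrophage or adipocyte markers.

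Wider lists of genes known from the same cell groups, members left out, did not all move as their namesake marker did, and their counts stand beside 28.2% of all genes called higher and 27.3% called lower. Of 16 early progenitor genes 14 could be tested, with 5 called higher, 4 lower and 5 in neither direction, shares near those of all genes. Their summed level was 759 to 1167 CPM in DP and 908 to 1300.0 CPM in DR. *Pcolce2*, a procollagen processing enhancer, had the smallest p and averaged 91.4 ± 18.9 CPM in DP and 195 ± 32.4 CPM in DR (log2 fold change -1.09 ± 0.0956, adjusted p = 4.04e-10 by edgeR), with no overlap of the ranges. *Dact2* (-0.41 ± 0.130) and *Bmp7* (-0.39 ± 0.126) were the other falling genes of smallest p, and *Anxa3* (0.19 ± 0.0476), *Has1* (1.16 ± 0.280) and *Cd248* (0.33 ± 0.0841) led those that rose. *Has1* had 0.983 ± 0.429 CPM in DP and 0.437 ± 0.277 CPM in DR and so rests on few counts.

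Of 12 committed preadipocyte genes, 4 were called higher and 3 lower and 5 missed the threshold, again near the shares of all genes, and the summed level was 7917 to 9206 CPM in DP and 7875 to 9130.0 CPM in DR. *Apoe*, *Col4a1* and *Col4a2*, which did not pass, weigh most in this sum. The chemokine gene *Cxcl14* averaged 38.9 ± 6.89 CPM in DP and 23.4 ± 5.12 CPM in DR (log2 fold change 0.73 ± 0.0997, adjusted p = 2.65e-07 by edgeR), and the adhesion molecule gene *Vcam1* (0.30 ± 0.0719) and *Col5a3* (0.22 ± 0.0580) rose as well. The cortisone reductase gene *Hsd11b1* (-0.46 ± 0.0689), *Smoc2* (-0.59 ± 0.0896) and the preadipocyte factor gene *Dlk1* (-0.51 ± 0.113) fell. *Dlk1* was low in both classes, at 2.14 CPM in DP and 3.05 CPM in DR on average. Of 5 genes of the CD142 group, 3 were called higher and 1 lower. The mineralisation inhibitor gene *Mgp* averaged 159 ± 36.4 CPM in DP and 81.8 ± 14.4 CPM in DR (0.96 ± 0.102), and *Gdf10* (0.61 ± 0.0929) and *Cygb* (0.25 ± 0.0427) rose, while *Fmo2* fell (-0.57 ± 0.114).

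Of 14 general fibroblast genes, 5 were called higher, 7 lower and 2 in neither direction. The proteoglycan gene *Lum* (0.63 ± 0.0652), the mesenchymal transcription factor gene *Prrx1* (0.67 ± 0.0713) and *Pdgfrb* (0.23 ± 0.0375) rose like *Pdgfra*. The membrane peptidase gene *Mme* (-0.60 ± 0.0606), the actin-severing gelsolin gene *Gsn* (-0.75 ± 0.0798) and *Zfp423* (-0.29 ± 0.0529), a transcription factor gene of preadipocytes, fell. *Gsn*, 56.0% of the summed level of this list, is a gene that fat cells and smooth muscle also express. Of 8 genes of activated fibroblasts, 6 were called higher and *Lrrc15* and *Inhba* missed the threshold. In 13 of 15 DP libraries the summed level was higher than in every DR library (1385 to 2436 CPM in DP and 1089 to 1669 CPM in DR). *Postn* made up 46.2% of this sum and *Fn1* averaged 881 CPM in DP and 609 CPM in DR, so these genes weigh most in it. *Timp1* averaged 38.6 ± 7.59 CPM in DP and 15.0 ± 5.19 CPM in DR (1.36 ± 0.139, adjusted p = 2.96e-09 by edgeR), and the matrix gene *Postn* (0.61 ± 0.0699) and *Cthrc1* (1.09 ± 0.160) rose too, the same direction as *Fap*. *Cthrc1* was low in both classes, at 2.69 CPM in DP and 1.265 CPM in DR on average. The median log2 fold changes of the lists were -0.065 (early), -0.027 (committed), 0.25 (CD142), -0.092 (general) and 0.51 (activated fibroblast), beside -0.0056 over all genes tested.

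**Figure D5:**
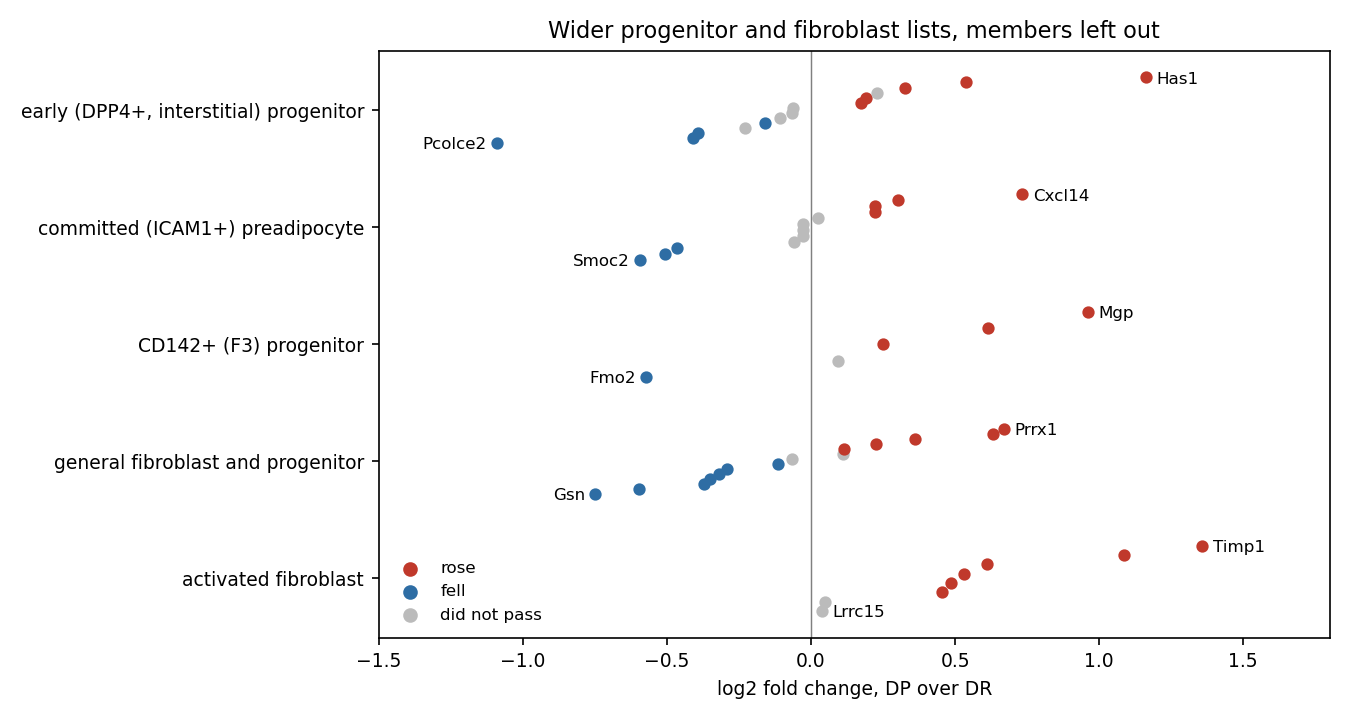
Log2 fold change, DP over DR (horizontal axis), of the tested genes of 5 wider lists; each point is a gene, red where it rose, blue where it fell and grey where it did not pass, and the names mark the ends of each list. The early and committed lists spread to both sides of 0, while 6 of 8 activated fibroblast genes rose.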

How the data were processed

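gWAT RNA of 30 mice was analysed, grouped by the disease state in the labels. The authors deposited estimated counts, whole numbers for each gene, and the submitters' processing notes name StringTie 2.1.3b and GRCm38.p6. Strand setting, aligner and annotation release: not given in the sources used here, so reads of overlapping antisense genes and near-identical copies cannot be told apart. All 30 count columns were used. Total counts of 28146906 to 29974243 set the sampling noise of the counts in each library, and reads were not counted as unique molecules. No 2 libraries agreed within sampling noise (chi-square over its degrees of freedom at least 7.46 in 435 pairs).

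For the comparison of the classes, edgeR 4.0.16 ran under R 4.3.3 (TMM factors, filterByExpr with a minimum count of 10 and a minimum total count of 15, quasi-likelihood F test with class as the only term), with Benjamini-Hochberg adjustment over all 17482 genes tested, after a test on simulated data. P-values weigh a class difference, or a relation across libraries, against the variation between these libraries. The SE is the log2 fold change divided by the square root of F. Intervals of a log2 fold change were built from this SE by a normal approximation, without adjustment over genes. CPM carried TMM factors, log2 CPM a prior count of 2. FPKM used exon lengths of GENCODE M21, where 55141 identifiers were found. Relations used 100000 permutations within classes in SciPy 1.17.1. Alternatives were DESeq2 1.42.0 (the tool of the study), voom with quality weights in limma 3.58.1, other scaling factors and filters, library number or marker levels as covariates, each side of the library numbers, and omission of libraries. Omission of DR libraries 6 and 9 and the relations with marker lists were chosen after the values were seen. The members, lists and tests were chosen with earlier results of these data known. Named genes were all members, up to 3 genes of smallest p per direction in each wider list, and the 2 genes most like each member. Some genes that weigh most in a summed level were also named.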

Additional observations from a re-analysis of the deposited data

How the results depend on the processing

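Under 12 of 18 alternatives, DESeq2 and limma-voom among them, 5 members rose and 2 fell as in the main comparison. Adding the macrophage markers to the fit left 0 genes higher and 0 lower in edgeR, and 0 members in either direction (2059 genes and 0 members had an unadjusted p under 0.05). The log2 fold changes were then -0.0053 for *Pdgfra* and 0.13 for *Cd34*, both of changed sign, and -0.061 for *Cd55*, -0.17 for *Dpp4*, 0.077 for *Fap*, 0.11 for *Icam1*, 0.24 for *Ly6a* and 0.28 for *Thy1*. With the adipocyte markers the calls were likewise 0 and 0 (1012 genes and 0 members at an unadjusted p under 0.05), with -0.085 for *Pdgfra* and -0.13 for *Fap*, of changed sign, and -0.10 for *Cd55*, -0.22 for *Dpp4*, 0.067 for *Icam1*, 0.069 for *Ly6a* and 0.016 for *Thy1*. The endothelial covariate left 2815 genes higher and 2305 lower and 1 member lower, with 0.15 for *Cd34* and -0.0079 for *F3*, of changed sign, and -0.071 for *Cd55* and 0.24 for *Fap*, which no longer passed. The mesothelial covariate left 1 member lower, with *Cd34* at 0.092 and *Pi16* at 0.13, of changed sign, *Cd55* at -0.10, no longer past the threshold, and *F3* at 0.33, now past it. The cause was not tested.

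Among the 15 libraries with the higher library numbers (7 DP and 8 DR), 3055 genes rose and 3158 fell, and 2 members rose. *Fap* at 0.13, *Ly6a* at 0.14 and *Thy1* at 0.32 were no longer past the threshold. Among the lower 15 (8 DP and 7 DR), 3697 genes rose and 3933 fell. There 1 member fell, with *Cd55* at -0.12 no longer past the threshold and *Cd34* at 0.038, while *Fap* at 0.38 and *Ly6a* at 0.40 passed. Why the sides differed was not tested. Without composition factors *Cd34* was 0.016 and *Pi16* 0.013, and with DR library 6, 7 or 9 left out *Cd34* was between -0.030 and 0.0024. No paired analysis was possible because the labels give the classes no shared replicate numbers. Names such as DR library 9 count the libraries of a class in order of library number and pair no mice. DR library 9 has library number 201 and is among the higher 15. The labels name no batch.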
